A study of Mus musculus with 6 samples.

Results

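Mecom and 9 other genes for transcription factors of blood stem cells were followed in mouse MLL-AF9 leukemia with and without Ppara. The set held Mecom, Prdm16, Gata2, Tal1, Lmo2, Runx1, Erg, Hlf, Mycn and Eya1, which are 10 of the 30142 genes that could be tested. The set was chosen by its lead gene: Mecom was selected on its higher signal in Ppara-/- leukemia in this same comparison, so that difference is given as a description with no test. The other 9 genes were joined to it as stem cell regulators, with earlier results of these data known. A gene was represented by the probe set paired with its symbol alone, and each of the 10 had exactly 1 such probe set.

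The leukemias carried MLL-AF9, a fusion oncogene delivered by an MSCV retrovirus that also encodes green fluorescent protein (GFP). One genotype group was Ppara+/+ MLL-AF9 leukemia and the other Ppara-/- MLL-AF9 leukemia, which lacks the fatty acid sensing nuclear receptor PPARA, and each had 3 arrays. All 6 samples were bone marrow mononuclear cells of secondary recipients, sorted for GFP. The mice of both genotypes came from a commercial source and were backcrossed, and the same virus and the same sort applied to both groups. Whether each replicate was an animal or a primary leukemia of its own is not in the labels, so errors measure the spread between these 6 samples, which may be technical. In bulk RNA a lower level in each cell and fewer cells with the transcript cannot be told apart.

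Mecom encodes a zinc finger protein that blood stem cells need for self-renewal, and its short form, EVI1, is a known oncogene in myeloid leukemia. Its relative PRDM16 also sustains stem cells. GATA2, TAL1, LMO2, RUNX1 and ERG bind together at enhancers in stem and progenitor cells, and HLF, MYCN and EYA1 are further regulators that stem cells or MLL-rearranged leukemias use.

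Mecom has 2 start sites in the RefSeq promoter table (assembly GRCm38.p6), 496555 bases apart on the minus strand. The gene is known for a long form, with a PR domain before the zinc fingers, made from a distant promoter, and for the short EVI1 form made from an internal one. The 250 bases before each start are shown because Mecom is the gene the set turns on. The first window is chr3:30509760-30510009, the second is chr3:30013205-30013454, and a window of Erg at chr16:95459349-95459598, also on the minus strand, is shown beside them with its GATA match in capitals.
Mecom, distant start: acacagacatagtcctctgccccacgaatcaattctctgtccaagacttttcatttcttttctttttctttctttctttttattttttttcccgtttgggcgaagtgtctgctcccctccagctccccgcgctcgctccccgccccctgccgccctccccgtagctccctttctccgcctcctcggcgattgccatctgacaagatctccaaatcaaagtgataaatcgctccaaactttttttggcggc
Mecom, internal start: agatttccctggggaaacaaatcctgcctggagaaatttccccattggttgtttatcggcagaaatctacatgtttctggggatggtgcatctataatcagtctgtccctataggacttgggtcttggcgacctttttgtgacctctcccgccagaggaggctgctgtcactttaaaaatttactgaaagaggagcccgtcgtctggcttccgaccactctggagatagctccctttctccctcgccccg
Erg: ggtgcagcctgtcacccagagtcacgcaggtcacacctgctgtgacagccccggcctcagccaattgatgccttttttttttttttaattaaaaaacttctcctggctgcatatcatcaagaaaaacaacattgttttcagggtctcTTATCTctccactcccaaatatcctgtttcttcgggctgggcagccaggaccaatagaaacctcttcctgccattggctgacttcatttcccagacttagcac

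Motifs were searched on both strands of the 250-base windows. The table held 14 windows for 8 of the 10 genes, and Lmo2 and Eya1 had none in it. The peroxisome proliferator response element, searched as AGGTCA, any base and AGGTCA again, was in 0 of the 14 windows and in 0.0335% of all 32851 windows of the table. The EVI1 zinc finger sequence GACAAGATA was likewise in 0 of 14 and in 0.107% of all windows. A GATA sequence, AGATAA, was in 1 window each of Erg and Tal1, against 9.99% of all windows, and a MYC type E-box, CACGTG, was in 1 Runx1 window, against 6.02%. The other sequences searched had 0 matches in the 14 windows, and they were CCGGAAGT for ETS factors (2.88% of all windows), TGTGGT for RUNX (14%), CAGCTG for TAL1 type E-boxes (13%) and TTACGTAA for PAR bZIP factors such as HLF (0.113%). Both Mecom windows held none of the 8 sequences. A match in these letters is a description, and a missing one says nothing of whether the factor binds.

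Signals are log2 values of the deposited table, and 5222 negative-control probe sets on each array served as the background. Their median was 4.63 to 5.16 and their 95th percentile 7.91 to 8.23. The negative-control median was highest on Ppara+/+ replicate 1 (5.16) and Ppara-/- replicate 2 (4.99). Of the leukemia and myeloid markers 9 of 12 lay above the 95th percentile on all 6 arrays. In that list 6 differences were positive and 6 negative (median 0.02), and 0 members passed the limma threshold. An unadjusted p under 0.05 was seen for 3 of the 12, against 5.78% of all genes. All 3 were higher in Ppara-/- leukemia without overlap, as were 5.15% of all genes. They were the granulocyte receptor gene Csf3r (0.37, SE 0.11; adjusted p = 0.47), the stem cell factor receptor gene Kit (0.54, SE 0.17; adjusted p = 0.546) and Hoxa10 (0.35, SE 0.11; adjusted p = 0.552).

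Mecom stood at the level of the negative controls in Ppara+/+ leukemia and clearly higher in Ppara-/- leukemia. The Ppara+/+ signals were 4.89, 5.17 and 5.80 in replicates 1 to 3, and the Ppara-/- signals were 7.31, 7.56 and 7.59. The lowest Ppara-/- array therefore lay 1.51 above the highest Ppara+/+ array, and the genotypes did not overlap. The means were 7.49 ± 0.15 (SD, n = 3) in Ppara-/- and 5.29 ± 0.47 (SD, n = 3) in Ppara+/+ leukemia. The log2 difference of 2.20 (SE 0.21, 95% interval 1.71 to 2.69) is a signal ratio of 4.59. That interval takes no account of the selection of Mecom on this difference. Only 4 of the 30142 genes, Mecom included, had a difference of at least that size in either direction. In Ppara+/+ leukemia 44.6% to 67.6% of the negative controls were dimmer than Mecom on the same array, and in Ppara-/- leukemia 90.6% to 93.4% were. Even there Mecom stayed under the 95th percentile of the controls, and the ratio of signals near background is no ratio of RNA levels. The Ppara+/+ arrays spread over 0.91 and the Ppara-/- arrays over 0.28, with Ppara+/+ replicate 3 the highest of its group.

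**Figure D1:**
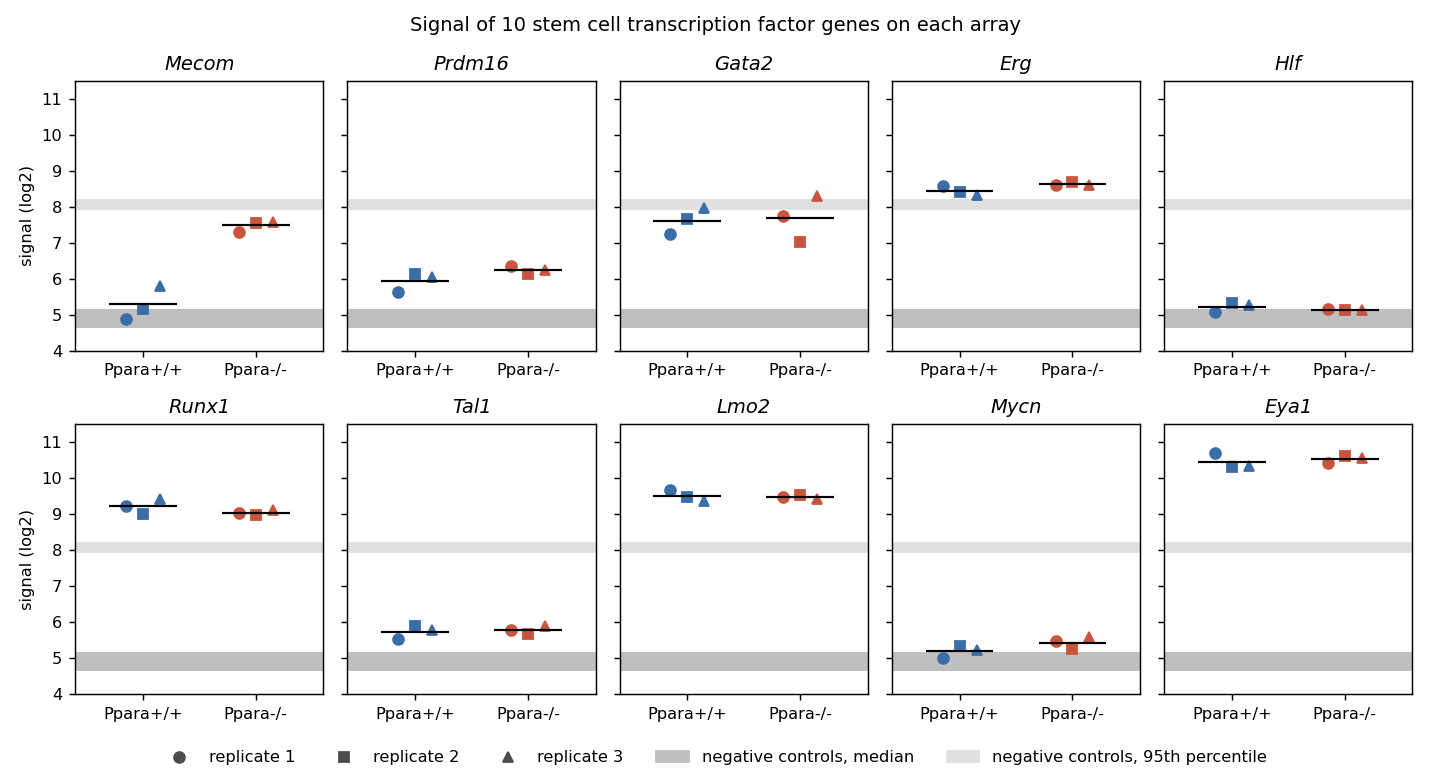
Signal (log2) of each of the 10 genes on each array, with Ppara+/+ in blue, Ppara-/- in red, a marker shape for each replicate number and a line at each mean; dark and light grey bands span the median and the 95th percentile of the negative controls over the 6 arrays. Mecom goes from 5.29 to 7.49, while Erg, Runx1, Lmo2 and Eya1 lie above the light band in both genotypes.

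Since Mecom was selected on these 6 arrays, its values in subsets of them are a description and no separate check. The difference was 2.0 to 2.46 with any 1 array left out and 1.97 (SE 0.23) without both arrays with the highest negative-control signal. With the negative-control median as a covariate it was 2.14 (SE 0.23). The probe set does not tell the long form from the short one, since which part of the gene it matches is not given in the sources used here.

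A second probe set in the same stretch of chromosome 3 also had higher values in Ppara-/- leukemia. RefSeq places the gene model Gm10258, a noncoding RNA, inside Mecom, and it was looked at after the data had been seen, as were all genes that RefSeq places over 1 of the 10. Its signals were 3.53, 3.55 and 3.51 in Ppara+/+ and 4.59, 5.09 and 4.27 in Ppara-/- leukemia. The genotypes did not overlap, and the difference of 1.12 (SE 0.19) had an adjusted p of 0.0999 in the limma fit. Most of these signals lay under the negative-control median. Gm10258 and Mecom share their place in the genome, and whether the probe set reads a transcript of its own or that of Mecom was not tested. Of 11 such genes 3 had a probe set, and the other two, Gm13133 and 5930403L14Rik inside Prdm16, overlapped between genotypes (differences of 0.01 and -0.15).

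The genes on either side of Mecom had differences close to 0. The 3 nearest measured protein-coding genes beyond its 5′ end were Actrt3, the zinc finger gene Mynn and Lrrc34, with differences of 0.03 (SE 0.16), -0.12 (SE 0.22) and -0.0033 (SE 0.093). Beyond its 3′ end came Egfem1, the ribosomal protein gene Rpl22l1 and the translation factor gene Eif5a2, with 0.01 (SE 0.11), 0.03 (SE 0.16) and -0.06 (SE 0.09). All 6 had an adjusted p of 0.997 in the limma fit, and 0 of the 6 had an unadjusted p under 0.05. Mynn ran from 6.91 to 7.77 on the Ppara+/+ arrays, and the Ppara-/- arrays lay inside that range (7.03 to 7.53).

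**Figure D2:**
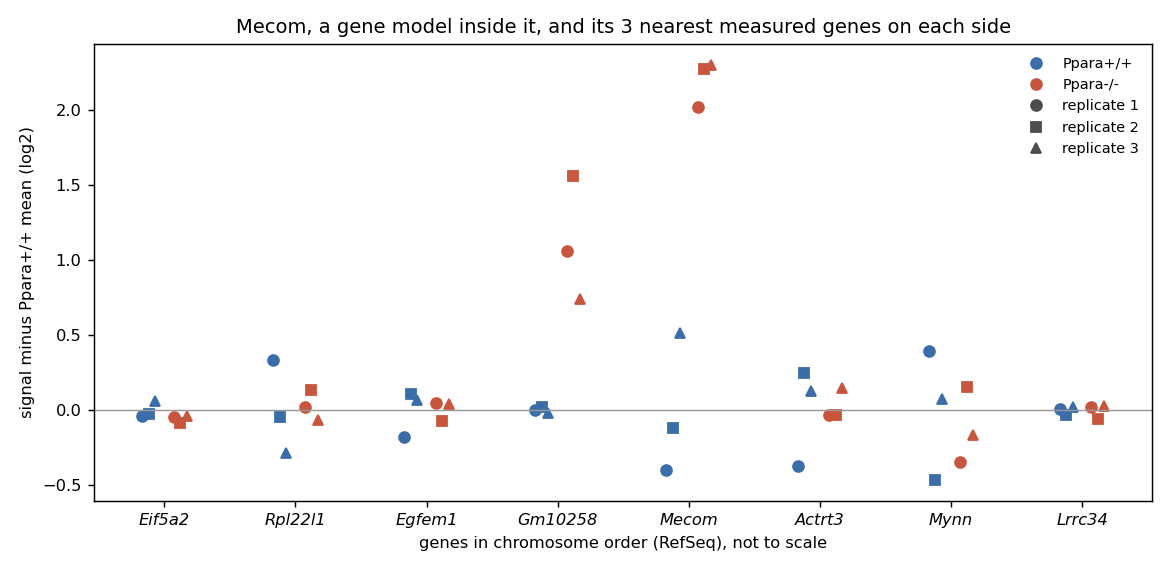
Signal minus the Ppara+/+ mean (log2) for Mecom, the gene model Gm10258 inside it and the 3 nearest measured genes on each side, in RefSeq chromosome order and not to scale; blue points are Ppara+/+ arrays, red points Ppara-/- arrays, and shapes give the replicate number. Mecom (difference 2.20) and Gm10258 (1.12) have all red points above all blue ones, and the 6 neighbours have differences between -0.12 and 0.03.

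Prdm16, the closest relative of Mecom among the 10, had a small positive difference. Its signals were 5.62, 6.12 and 6.04 in Ppara+/+ and 6.35, 6.14 and 6.24 in Ppara-/- leukemia. The groups missed each other by 0.02, with Ppara+/+ replicate 1 well below the other 5 arrays. That array was also the lowest for Mecom, Hlf, Tal1 and Mycn. The Prdm16 difference was 0.32 (SE 0.15, 95% interval -0.01 to 0.65), and without Ppara+/+ replicate 1 it was 0.16. Prdm16 stayed under the 95th percentile of the negative controls on every array, with 58.6% to 80.0% of them dimmer.

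The enhancer-binding group of GATA2, TAL1, LMO2, RUNX1 and ERG had no common direction, and the 95% interval of each gene reached both signs. Gata2, which stem cells, mast cells and basophils use, varied most between replicates. Its Ppara+/+ signals were 7.24, 7.65 and 7.97 and its Ppara-/- signals 7.74, 7.02 and 8.29. The lowest and the highest of the 6 values were both Ppara-/- arrays, replicates 2 and 3. The difference was 0.06 (SE 0.30) with an interval from -0.63 to 0.76, so the arrays do not settle a direction, and leaving out Ppara-/- replicate 3 gave -0.24, leaving out Ppara-/- replicate 2 gave 0.40. The mast cell and basophil markers, 10 of 10 measured, had mean signals of 5.04 to 5.16 on the Ppara+/+ arrays and of 4.92 to 5.11 on the Ppara-/- arrays. In replicates 1 to 3 of Ppara-/- leukemia the protease Cpa3 was at 5.26, 3.88 and 6.08, in the order of Gata2, and the basophil protease Mcpt8 at 6.77, 7.23 and 6.53, in the reverse order. In Ppara+/+ leukemia, where Gata2 was highest in replicate 3, Cpa3 was lowest there (6.54, 7.17 and 6.40), and so was Mcpt8 (7.03, 5.94 and 5.63). The part of such cells in the Gata2 values was not tested.

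Erg, an ETS factor of stem and progenitor cells, was at 8.58, 8.41 and 8.32 in Ppara+/+ and at 8.62, 8.70 and 8.62 in Ppara-/- leukemia. The groups were separated by 0.04, and the Ppara-/- arrays spread over only 0.08. The difference was 0.21 (SE 0.11, 95% interval -0.03 to 0.45), and between 0.15 and 0.28 with any 1 array left out. Erg was brighter than 95.4% to 97.5% of the negative controls, just over their 95th percentile on Ppara+/+ replicate 3 (8.32 against 8.22).

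Runx1, which blood stem cells need to arise and which is often mutated in leukemia, had a negative difference. It stood at 9.22, 9.0 and 9.42 in Ppara+/+ and at 9.03, 8.97 and 9.12 in Ppara-/- leukemia. The ranges overlapped, since Ppara+/+ replicate 2 lay among the Ppara-/- arrays. The difference was -0.17 (SE 0.13, 95% interval -0.46 to 0.11).

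Lmo2, the adaptor that joins TAL1 to GATA factors, was at 9.67, 9.47 and 9.37 in Ppara+/+ and at 9.49, 9.53 and 9.43 in Ppara-/- leukemia. The Ppara-/- arrays lay inside the range of the Ppara+/+ arrays. Its difference of -0.02 (SE 0.11) has an interval from -0.27 to 0.23, which bounds a change in signal at these sizes in either direction. Tal1, a basic helix-loop-helix factor, was dim at 5.52, 5.88 and 5.77 in Ppara+/+ and 5.78, 5.66 and 5.89 in Ppara-/- leukemia. The groups overlapped, and the difference was 0.05 (SE 0.12, 95% interval -0.23 to 0.34).

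Of the other regulators, Eya1 was far above the negative controls. Eya1, a phosphatase that partners sine oculis homeobox factors, had signals of 10.71, 10.31 and 10.34 in Ppara+/+ and of 10.41, 10.63 and 10.56 in Ppara-/- leukemia. All 6 arrays had it above 99.1% of the negative controls, the highest share among the 10 genes, and the genotypes overlapped. The difference was 0.08 (SE 0.13, 95% interval -0.22 to 0.38).

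Hlf and Mycn were close to background. Hlf, a PAR bZIP factor of the most immature stem cells, was at 5.07, 5.33 and 5.27 in Ppara+/+ and at 5.15, 5.13 and 5.13 in Ppara-/- leukemia. Its groups overlapped and differed by -0.09 (SE 0.11, 95% interval -0.33 to 0.15), with 48.1% to 63.1% of the negative controls dimmer. Mycn, a MYC family gene active in stem cells, was at 5.01, 5.34 and 5.21 in Ppara+/+ and at 5.46, 5.25 and 5.57 in Ppara-/- leukemia. The ranges overlapped by 0.09, and the difference was 0.24 (SE 0.13, 95% interval -0.05 to 0.53). Without Ppara+/+ replicate 1 it was 0.15. At these signals a change in a transcript of low level could be missed.

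**Figure D3:**
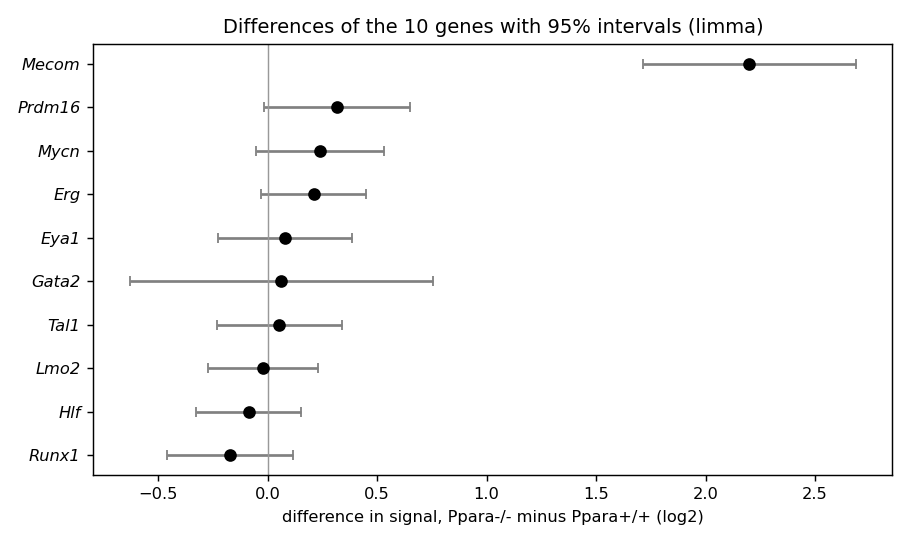
Log2 difference in signal, Ppara-/- minus Ppara+/+, for the 10 genes, with bars for the 95% interval of the limma fit and a line at 0. Mecom was selected on its difference of 2.20, so its interval from 1.71 to 2.69 is a description and no test. The intervals of the other 9 genes all include 0.

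Across the set, 7 of 10 differences were positive and 3 negative, with a median of 0.07 against 0.02 over all 30142 genes, of which 57.3% were positive. In limma's fit over all genes 1 of the 10, Mecom, was past an adjusted p (Benjamini-Hochberg) of 0.05, where 0.126% of all genes were (38 genes, with 0.0597% higher and 0.0664% lower in Ppara-/- leukemia). The set was chosen for Mecom, so nothing is read from that count, which was 0 without Ppara-/- replicate 1, without the 2 arrays of brightest negative controls and with the negative-control covariate. The other 9 genes had adjusted p between 0.898 and 0.997 in this fit, and their differences ran from -0.17 to 0.32. Values of the genotypes did not overlap in 3 of the 10, Mecom, Prdm16 and Erg, all higher in Ppara-/- leukemia, and 0 of the 10 were separated with Ppara-/- lower. Over all genes such a separation was seen in 8.78%, with 5.15% higher and 3.63% lower in Ppara-/- leukemia. The signals of 4 genes, Erg, Runx1, Lmo2 and Eya1, were above the 95th percentile of the negative controls on all 6 arrays, and 6 genes had both means under the lowest such percentile.

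**Figure D4:**
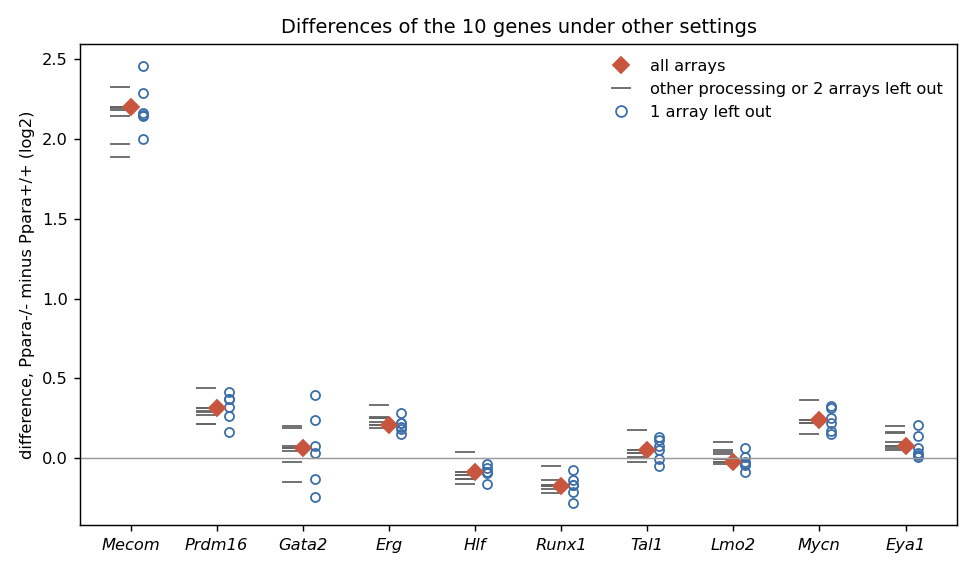
Log2 difference, Ppara-/- minus Ppara+/+, for each of the 10 genes with all arrays (red diamonds), with other processing or 2 arrays left out (grey dashes) and with 1 array left out (blue circles). Mecom stays between 1.88 and 2.46, and Gata2 ranges from -0.24 to 0.40 on both sides of 0.

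Genes that work with these factors, taken from 11 lists written with earlier results of these data known, gave no call. Of 133 genes in the lists 119 were measured, and 0 were past the limma threshold, with 13 at an unadjusted p under 0.05 (10.9%, against 5.78% of all genes). Their median difference was 0.03. Over all genes 57.3% of differences were positive, and 0.126% of genes were past the limma threshold. Genotypes did not overlap in 8.78% of all genes.

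Among 20 measured stem cell factors outside the set, 12 differences were positive and 8 negative (median 0.03), and 2 had an unadjusted p under 0.05 in limma. Hoxb5, a homeobox gene of long-term stem cells, was at 5.19 ± 0.14 against 5.67 ± 0.26 (adjusted p = 0.544, limma, n = 3). Hoxa10, a target of MLL fusions, was at 6.75 ± 0.06 against 6.40 ± 0.14 (adjusted p = 0.552, limma, n = 3). Both had genotypes that did not overlap, in opposite directions.

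In the PRDM family 7 of the 12 measured genes had a positive difference and 5 a negative one (median 0.03), and 1 had an unadjusted p under 0.05 in limma. Prdm4 was at 7.37 ± 0.03 against 7.69 ± 0.16 (adjusted p = 0.692, limma, n = 3) and Prdm15 at 6.87 ± 0.03 against 6.62 ± 0.16 (adjusted p = 0.875). No difference in this family beyond Mecom and Prdm16 exceeded 0.32 in size.

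Corepressors, chromatin modifiers and the signal transducer Smad3, listed as binding MECOM, had 10 positive and 3 negative differences among 13. The median was 0.03, with 1 unadjusted p under 0.05 in limma. Smad3, a transducer of TGF-beta signals that EVI1 represses, was at 7.35 ± 0.09 against 6.94 ± 0.20 (adjusted p = 0.528, limma, n = 3). The corepressor Ctbp1 was at 9.01 ± 0.14 against 9.20 ± 0.12 (adjusted p = 0.997). Genes reported as controlled by MECOM, of which 9 of 12 were measured, had 5 positive and 4 negative differences and a median of 0.07. The gluconeogenic enzyme gene Fbp1 was at 7.57 ± 0.30 against 6.94 ± 0.34 (adjusted p = 0.584, limma, n = 3, the 1 member with an unadjusted p under 0.05), and the granulocyte factor Cebpe was at 9.18 ± 0.12 against 8.94 ± 0.31 (adjusted p = 0.997).

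Partners of LMO2, TAL1 and GATA factors had 9 positive and 6 negative differences among 15 (median 0.03), with 1 unadjusted p under 0.05. That gene was Ssbp2, which stabilises LDB1 complexes, at 7.02 ± 0.09 against 6.61 ± 0.08 (adjusted p = 0.32, limma, n = 3). Tal2 was at 3.97 ± 0.18 against 3.74 ± 0.14, under the negative-control median on every array. ETS relatives of Erg had 6 positive and 3 negative differences among 9 (median 0.08), and here Ets1 was at 8.18 ± 0.20 against 7.53 ± 0.28 (adjusted p = 0.315, limma, n = 3). Etv6, an ETS repressor that stem cells need, was at 9.81 ± 0.14 against 9.53 ± 0.17 (adjusted p = 0.894). The Ets1 and Ssbp2 values did not overlap between genotypes, and both were higher in Ppara-/- leukemia without passing the test over all genes.

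RUNX and core binding factor genes had 1 positive and 4 negative differences among 5 measured (median -0.09), with 0 at an unadjusted p under 0.05 in limma. Cbfb, the partner of RUNX1, was at 8.88 ± 0.11 against 9.06 ± 0.19 and Runx3 at 8.38 ± 0.10 against 8.48 ± 0.06 (adjusted p = 0.997 for both, limma, n = 3). Dbp, Tef and Nfil3, the bZIP relatives of Hlf, had a median of 0.02, with 0.16 for Nfil3 and -0.06 for Dbp. The MYC and MAX network had 9 positive differences among 10 with a median of 0.05, where 57.3% of all genes were positive. Mxd1, a MAX partner that opposes MYC, was at 9.73 ± 0.09 against 9.44 ± 0.30 (adjusted p = 0.974, limma, n = 3). Mxd3, another MAX partner, was at 6.64 ± 0.05 against 6.73 ± 0.10. The last 2 lists had 0 members at an unadjusted p under 0.05 in limma.

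The network of EYA proteins with sine oculis homeobox and DACH factors had a median of 0.03 over 10 members, of which 1 had an unadjusted p under 0.05. Dach1, a corepressor of that network, had signals of 8.05, 8.58 and 8.73 in Ppara+/+ and of 7.14, 7.82 and 7.97 in Ppara-/- leukemia. The groups were 0.08 apart, and the difference of -0.81 (SE 0.24) did not pass over all genes (adjusted p = 0.507, limma). Six4, a homeobox partner of EYA proteins, was at 4.85 ± 0.16 against 4.58 ± 0.17 (adjusted p = 0.93, limma, n = 3), near the negative-control median.

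Stem and progenitor surface and signalling genes had differences in both directions, with 9 positive and 8 negative differences among 17. Of these 5 had an unadjusted p under 0.05 in limma, 2 higher and 3 lower, where 5.78% of all genes had such a p. Cdkn1c, which encodes the cell cycle inhibitor p57 of quiescent stem cells, had signals of 6.64, 6.68 and 6.92 in Ppara+/+ and of 7.76, 8.02 and 7.51 in Ppara-/- leukemia. Its groups were 0.59 apart, and the difference of 1.02 (SE 0.15) came closest to the threshold in these lists (adjusted p = 0.0626, limma). Cd48, a surface protein that marks progenitors rather than stem cells, was at 7.14 ± 0.41 against 7.85 ± 0.26 (adjusted p = 0.516, limma, n = 3). Kit (0.54), Cxcr4 (-0.51) and Cd34 (-0.87) also had an unadjusted p under 0.05 in limma. The list members Procr, Tek, Fgd5, Slamf1 and Esam had differences of -0.06, 0.03, -0.05, 0.10 and 0.13.

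**Figure D5:**
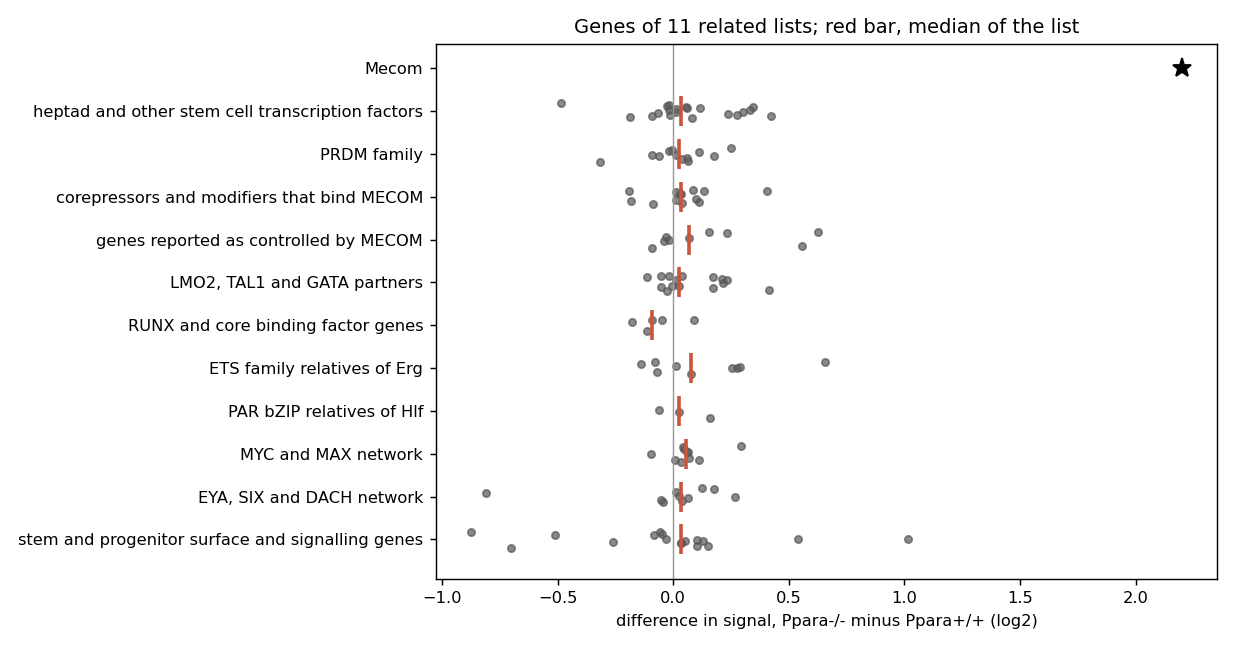
Log2 difference, Ppara-/- minus Ppara+/+, of each measured gene in 11 lists of related factors, partners and stem cell genes; each point is a gene, red bars are list medians and the star is Mecom. List medians lie between -0.09 and 0.08, Cdkn1c is the highest list gene at 1.02, and Mecom, selected on its difference, lies at 2.20.

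Markers of other marrow cells were read as lists. Of 9 measured megakaryocyte and platelet markers, 7 erythroid, 10 mast cell and basophil, 11 endothelial and 9 lymphocyte markers, 0 lay above the 95th percentile of the negative controls on all 6 arrays. The mean signal of the megakaryocyte list was 5.11 to 5.41 on the Ppara+/+ arrays and 5.30 to 5.39 on the Ppara-/- arrays, and that of the endothelial list 4.68 to 5.04 and 4.86 to 5.05. The means of both lists overlapped between genotypes, with 8 of 9 megakaryocyte and 10 of 11 endothelial differences positive, where 57.3% of all genes were. Both lists had their lowest mean on Ppara+/+ replicate 1 (5.11 and 4.68). The next lowest were on Ppara-/- replicate 2 (5.30 and 4.86). Ppara+/+ replicate 1 had the highest negative-control median and the lowest median over genes (5.16 for each). The erythroid list was also lowest there, with 3 positive and 4 negative differences. How far the counts rest on that array was not tested. The megakaryocyte and endothelial means lay near the negative-control median, so they do not show how many such cells were present. Endothelial cells also express Mecom, and the part of such cells in its signal was not tested. In the erythroid list the means were 4.66 to 5.03 and 4.82 to 4.95, and in the lymphocyte list 4.91 to 5.18 and 4.96 to 5.14. In the mast cell and basophil list Cpa3 had the smallest p, with a difference of -1.63 (SE 0.48; adjusted p = 0.493, limma), and Mcpt8 came next with 0.64 (SE 0.34). The B cell receptor gene Cd79b was at 7.95, 7.72 and 8.01 in Ppara+/+ and at 7.68, 7.49 and 7.32 in Ppara-/- leukemia, and so well over the negative-control median on every array. The other named markers had smaller differences, 0.11 for the platelet genes Pf4 and Ppbp, 0.11 and -0.08 for the erythroid genes Epb42 and Alas2, 0.18 and 0.16 for the endothelial genes Plvap and Flt4 and 0.07 for the B cell gene Ms4a1. Of these lists 0 members were past the limma threshold, against 0.126% of all genes. An unadjusted p under 0.05 was found for 2 members, Cpa3 and Cd79b, both lower in Ppara-/- leukemia without overlap, where 5.78% of all genes had such a p.

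The 5 protein-coding genes most like Mecom were found by the root mean square distance between log2 signals over the 6 arrays, each gene centred on its own mean. They were Mt2, a metallothionein, at a distance of 0.24, Slc15a2, a peptide transporter, at 0.24, Mtss1, a membrane and actin binding protein, at 0.26, the cytokine gene Il1f9 at 0.39 and Satb1, an organiser of chromatin, at 0.45. All 5 were higher in Ppara-/- leukemia with no overlap, which such a distance selects for. Satb1 had signals of 5.74, 6.19 and 6.15 in Ppara+/+ and of 7.15, 8.09 and 7.44 in Ppara-/- leukemia. Within the set Prdm16 was nearest to Mecom at 0.98, with 781 genes closer, then Mycn at 1.02 and Erg at 1.05 with 1696 and 3552 genes closer. Runx1 was farthest at 1.21, with 25311 genes closer. These genes come in the order of their differences (0.32, 0.24, 0.21 and -0.17), so the distances are no separate measure of likeness to Mecom.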

How the data were processed

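RNA of 6 samples was measured on Affymetrix arrays. The deposited table gives a log2 signal for each probe set on each array. RMA (background correction, quantile normalization and summary of probes) and limma are named in the submitters' processing notes with no version or order. Quantile normalization removes a shift shared by most genes. The design text names an array model whose identifiers look different, so the model is uncertain. Of 72688 rows 6732 were controls, 30604 had 1 gene symbol, 2146 several and 33206 were unnamed here. Symbols were updated by gene ID through the RefSeq gene table (GRCm38.p6), which served for names and neighbours only.

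The comparison used lmFit and eBayes of limma 3.58.1 under R 4.3.3, two-sided and with no covariates, and Benjamini-Hochberg adjustment over 30142 genes, each by its probe set of highest mean. No filter was set. The fit was tested on simulated data. It called 9.85% of added differences of 0.5, 65.5% of those of 1 and 96.5% of those of 2. Of genes with no added difference it called 0.017%. Most differences of 0.5 were thus missed. Other processing used Python 3.11.15 and pandas 2.3.3. The number of arrays limits the precision. The set and all lists were chosen with earlier results of these data known. The rule for naming took the 10 genes, list members past the threshold and then the 2 with the smallest p in each list, 3 neighbours on each side of Mecom and the 5 genes most like it. Further members of the stem and progenitor surface list were named to show both directions. Alternatives were another prior, 3 normalizations, 2 filters, the mean of probe sets, array weights, the replicate block, arrays left out, a covariate and a threshold of 0.10.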

Additional observations from a re-analysis of the deposited data

How the results depend on the processing

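Of all genes tested, 38 were past the threshold, and Mecom, selected on these arrays, was the 1 gene of the set among them. That count was 70 with a trended and robust prior, 23 with quantile normalization again, 13 with centring on the median, 22 when scaled by the negative-control median, 6 with genes above the 95th percentile of the controls in a genotype, 271 with array weights, 0 without both arrays of highest negative-control signal (limma; 2870 at an unadjusted p under 0.05) and 76 at a threshold of 0.10. It was 6 to 38 with 1 array left out, with 6 when Ppara-/- replicate 1 was dropped, 13 for Ppara+/+ replicate 3 and 17 each for Ppara-/- replicates 2 and 3.

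Of the set, 0 to 1 genes passed with 1 array left out, 0 of them without Ppara-/- replicate 1. The count was 0 without both arrays of highest negative-control signal, 0 with the negative-control covariate and 0 of the 4 genes kept by the 95th percentile filter, which leaves out Mecom. The Mecom difference was 1.88 to 2.46 over these settings, given as a description because Mecom was selected on the same arrays. The other 9 genes passed in none of the settings.

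Signs turned only in genes whose difference was small. Gata2 was -0.024 with array weights, -0.15 with the covariate and -0.24 to 0.40 with 1 array left out. Hlf was 0.037 when scaled by the negative-control median, a setting that moved the median of all genes to 0.15, where it was 0.02. Tal1 was -0.025 with the covariate and -0.048 to 0.13 with 1 array left out. Lmo2 was 0.10 when scaled by the negative-control median, 0.054 with array weights, 0.040 without both arrays of highest negative-control signal, 0.026 with the covariate and -0.087 to 0.063 with 1 array left out. Relative to the median of all genes in that scaling, Hlf and Lmo2 stayed lower. The cause of these changes was not tested.

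With the replicate number as a block 12 genes passed, all among the 38, and Mecom was 1 of them. Since Mecom was selected on these arrays, its place there is no separate check. Same-numbered samples did not deviate together (correlations of -0.33, -0.47 and 0.11 for numbers 1, 2 and 3), so the numbers were not taken to pair the samples. The largest correlation between the genotypes, 0.50, was that of Ppara+/+ replicate 1 with Ppara-/- replicate 2, the arrays of highest negative-control median. Its cause was not tested.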
